A study of Mus musculus with 17 samples.

Results

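Ppp1r1b, Rgs9, Syndig1l, Actn2, Gpr6, Rarb and Rasd2 are 7 genes known for their expression in medium spiny neurons, the projection neurons of the striatum. They were chosen by symbol from the 56953 genes of the count table, on their levels in these same libraries, because striatal markers stood high in all WT libraries and in some CgA-KO/PS19 libraries, and low in all PS19 libraries. All 7 were among the 23062 genes tested. Their differences between genotypes are therefore given as a description, with no p-value, and counts of those past the FDR are printed only to show how they depend on libraries and settings.

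Prefrontal cortex RNA was sequenced from 17 mice, 5 WT, 6 PS19 and 6 CgA-KO/PS19. All were 8 months old by the labels and on the B6C3F1/J background. PS19 mice (labelled hTau) carry a human Tau transgene with a mutation that causes frontotemporal dementia, driven by the Prnp promoter. CgA-KO/PS19 mice (labelled CgA-KO/hTau) carry the same transgene and lack chromogranin A (CgA), encoded by Chga, throughout the body from conception. The PS19 allele is thus shared by PS19 and CgA-KO/PS19, and both comparisons with PS19 use the same 6 PS19 libraries.

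Medium spiny neurons are GABAergic cells that receive glutamate input from the cortex and dopamine input from the midbrain. They form a direct pathway, whose cells carry the dopamine receptor Drd1, and an indirect pathway, whose cells carry Drd2 and the adenosine receptor Adora2a. Cortex has excitatory projection neurons in their place, and several striatal markers, Rasd2 and Actn2 among them, are also expressed in cortex at lower levels.

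Levels are given as CPM, library-scaled counts after TMM normalization, a scaling of library sizes in edgeR. Total counts ranged from 8838334 in WT replicate 4 to 227651681, with about 3 deposited counts for each sequenced fragment. Chga stood at 152 to 180.1 CPM in WT and 162 to 177 CPM in PS19, and was at 0 counts in all 6 libraries labelled as lacking it. CgA-KO/PS19 replicates 1 and 3 were unusually alike, with a robust SD of their log2 ratio of 0.0980 over 3761 well covered genes, which is 2.57 times counting noise, and so were PS19 replicates 4 to 6, at 0.0523 to 0.0607. Every other pair of libraries of 1 genotype was at 0.146 or more. Mitochondrial genes took 15.3%, 18.2% and 13.8% of counts in CgA-KO/PS19 replicates 1 to 3 and 2.56% to 10.9% in the other libraries. The Y-linked gene Ddx3y was at 49.8 to 76.8 CPM wherever the replicate number was 1 to 3 and at 0.0582 CPM or less wherever it was 4 to 6.

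The promoters of Gpr6 and Rarb are printed because each holds a sequence element that is rare among promoters. RefSeq promoters (GRCm38.p6, 250 bases before to 50 after the start site) were found for 5 of the 7 genes, Gpr6, Rgs9, Actn2, Rarb and Rasd2. The 250 bases before the start are given 5′ to 3′, in lower case with the matched motif in capitals, and they end at the base before the start site.
Gpr6, chr10:41072291-41072540, minus strand: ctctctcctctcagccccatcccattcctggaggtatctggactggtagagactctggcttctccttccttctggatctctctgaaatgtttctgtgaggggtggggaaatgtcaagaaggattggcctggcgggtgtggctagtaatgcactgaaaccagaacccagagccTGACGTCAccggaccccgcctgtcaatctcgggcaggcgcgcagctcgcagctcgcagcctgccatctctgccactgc
Rarb, chr14:16575477-16575726, minus strand: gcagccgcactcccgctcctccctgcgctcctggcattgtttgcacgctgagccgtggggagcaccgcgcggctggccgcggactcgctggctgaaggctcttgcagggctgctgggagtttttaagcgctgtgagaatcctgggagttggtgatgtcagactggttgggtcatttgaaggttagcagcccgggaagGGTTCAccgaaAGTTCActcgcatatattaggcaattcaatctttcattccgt
In the Gpr6 promoter the capitals mark TGACGTCA, the full cAMP response element, 78 bases before the start. It was held by 1.80% of the 32544 mouse promoters in the table. The shorter core TGACG, held by 20.9%, matched there on both strands, and both of its matches lie inside the full element. In the Rarb promoter the capitals mark GGTTCA and AGTTCA read along the gene, 5 bases apart and beginning 53 bases before the start. This is the arrangement known as the retinoic acid response element of Rarb, which lets the receptor act on its own gene. Both elements at this spacing were held by 2 of the 32544 promoters (0.00615%), while AGTTCA alone was held by 14.0%. The spaced pair was added to the search after the sequence had been seen, and the start used by RefSeq lies inside the longer gene span of the annotation.

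The other 3 promoters held commoner motifs or none. Besides the elements above, searches on both strands covered the TATA box TATAAA (in 13.6% of promoters), the GC box GGGCGG (35.9%), the receptor element AGGTCA (16.2%) and the forkhead motif TGTTTAC (3.66%). Rgs9 had TATAAA 195 bases before the start and GGGCGG on the minus strand 91 bases before it and on the plus strand 40 bases after it. Actn2 had GGGCGG on the plus strand 136 bases before the start and on the minus strand 38 bases after it, and AGGTCA 170 bases before it. Rasd2 matched none of these motifs, had a GC content of 74.7% and held 33 CpG dinucleotides. The other 4 had a GC content of 57.7% to 64.7% and 13 to 19 CpG, against medians of 53% and 7 over all promoters. No binding or chromatin data were read here, and a match describes letters only.

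Ppp1r1b encodes DARPP-32, the phosphoprotein that turns dopamine signals into inhibition of protein phosphatase 1. The gene lies at chr11:98348404-98357796 on the plus strand (GRCm38, GENCODE M21, the source of all gene positions here), and all 7 genes are annotated as protein coding. Its level was 145, 157, 351, 73.2 and 272 CPM in WT replicates 1 to 5, and 25.4 CPM (lowest), 31.7 CPM (median) and 43.8 CPM (highest) in the 6 PS19 libraries. In CgA-KO/PS19 replicates 1 to 6 it was 271, 44.9, 260.0, 31.7, 27.3 and 22.1 CPM. WT and PS19 did not overlap, whereas CgA-KO/PS19 ran from below the lowest PS19 library to above 3 of the 5 WT libraries. The log2 fold change was 2.54 (SE 0.62) for WT against PS19, 1.67 (SE 0.59) for CgA-KO/PS19 against PS19 and -0.87 (SE 0.60) for CgA-KO/PS19 against WT (edgeR).

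Rgs9 (chr11:109225355-109298129, minus strand) encodes a regulator that speeds the switching off of G proteins, with a striatal form that acts behind dopamine and opioid receptors. WT replicates 1 to 5 had 63.2, 65.1, 197, 33.9 and 169 CPM, and PS19 had 4.68 to 8.45 CPM with a median of 6.38 CPM. CgA-KO/PS19 replicates 1 to 6 had 129, 18.0, 123, 6.77, 5.88 and 5.86 CPM. The lowest WT library was 4.01 times the highest PS19 library, and CgA-KO/PS19 replicates 1, 2 and 3 were above every PS19 library. Log2 fold changes were 4.04 (SE 0.81), 2.90 (SE 0.76) and -1.14 (SE 0.74) in the same order of comparisons.

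Syndig1l (chr12:84677277-84698831, minus strand), also called capucin, encodes a membrane protein related to the synapse differentiation factor Syndig1. It had the widest range of the 7 genes. WT replicates 1 to 5 had 24.6, 40.5, 108, 12.3 and 91.4 CPM, PS19 had 1.48 to 2.30 CPM with a median of 1.93 CPM, and CgA-KO/PS19 replicates 1 to 6 had 126, 12.1, 114, 2.28, 1.64 and 1.04 CPM. CgA-KO/PS19 replicates 1 and 3 were above every WT library, which held for no other gene of the 7. Replicate 6 of that genotype was below every PS19 library, at 36 deposited counts or about 12 fragments (95% exact Poisson interval 6.20 to 21.0, counting error only). The log2 fold change was 4.86 (SE 1.08), 4.49 (SE 1.05) and -0.37 (SE 0.94).

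Actn2 (chr13:12269426-12340760, minus strand) encodes an alpha-actinin, an actin crosslinker that in neurons sits in dendritic spines and binds NMDA receptors. WT replicates 1 to 5 had 24.3, 24.5, 54.5, 20.1 and 55.1 CPM, PS19 had 6.98 to 9.26 CPM with a median of 8.06 CPM, and CgA-KO/PS19 replicates 1 to 6 had 31.9, 10.2, 30.8, 7.68, 8.00 and 8.60 CPM. It was the gene with the narrowest spread within WT, 2.74-fold from lowest to highest. Log2 fold changes were 2.17 (SE 0.40), 1.02 (SE 0.38) and -1.14 (SE 0.39).

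Gpr6 (chr10:41069977-41072285, minus strand) encodes an orphan receptor with high basal activity that raises cAMP, found mainly on indirect pathway neurons. WT replicates 1 to 5 had 8.50, 9.90, 26.8, 5.59 and 24.9 CPM, PS19 had 0.337 to 1.46 CPM with a median of 0.765 CPM, and CgA-KO/PS19 replicates 1 to 6 had 13.3, 2.63, 13.4, 1.17, 0.903 and 0.982 CPM. The lowest WT library was 3.84 times the highest PS19 library. Log2 fold changes were 4.28 (SE 0.75), 2.79 (SE 0.70) and -1.49 (SE 0.68).

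Rarb (chr14:16430839-16819156, minus strand) encodes retinoic acid receptor beta, a nuclear receptor needed for the formation of striatal neurons. WT had 4.92, 4.03, 10.02, 3.08 and 8.64 CPM in replicates 1 to 5, and PS19 had 1.84 to 2.35 CPM with a median of 2.00 CPM. CgA-KO/PS19 replicates 1 to 6 had 7.63, 2.99, 6.69, 1.99, 1.83 and 2.05 CPM. WT and PS19 did not overlap, though the lowest WT library was only 1.31 times the highest PS19 library and rested on 27 deposited counts, about 9 fragments. Log2 fold changes were 1.63 (SE 0.38), 0.94 (SE 0.36) and -0.69 (SE 0.38).

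Rasd2 (chr8:75213944-75224113, plus strand) encodes Rhes, a small GTPase enriched in striatum that acts on dopamine signaling and binds huntingtin. WT replicates 1 to 5 had 133, 147, 350.0, 64.8 and 268 CPM, PS19 had 68.6 to 110.0 CPM with a median of 104 CPM, and CgA-KO/PS19 replicates 1 to 6 had 282, 72.7, 300.0, 75.4, 57.4 and 39.4 CPM. Rasd2 did not follow the pattern by which the genes were chosen, because WT replicate 4 was below every PS19 library and the groups overlapped. CgA-KO/PS19 replicates 4 to 6 had a median 0.552 times that of PS19, whereas for the other 6 genes this ratio was 0.852 to 1.28. Log2 fold changes were 1.01 (SE 0.49), 0.52 (SE 0.47) and -0.48 (SE 0.49).

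**Figure D1:**
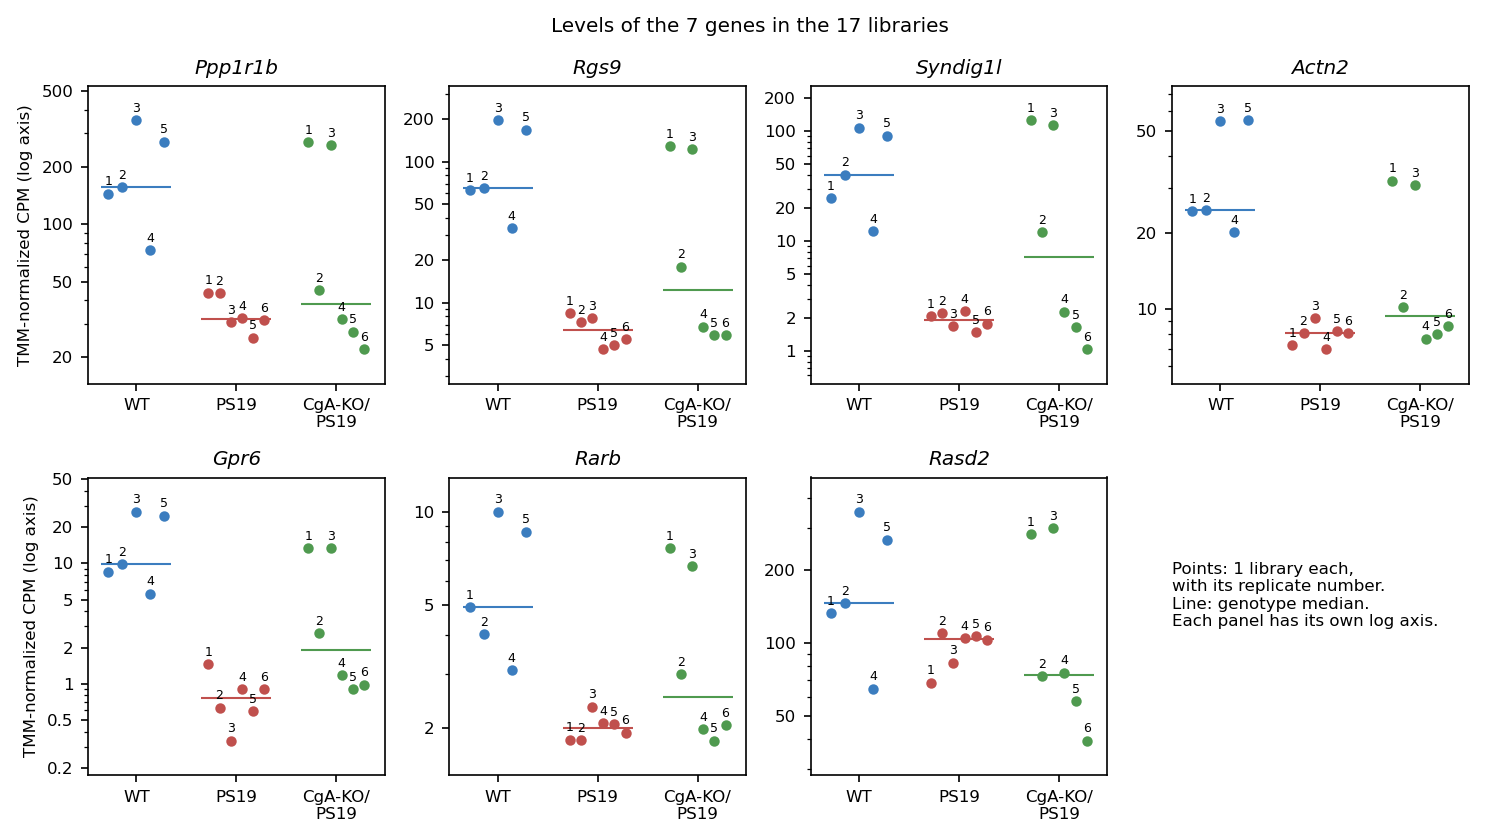
TMM-normalized CPM (log axis, a separate scale in each panel) of the 7 genes, with 1 point and replicate number per library and a line at the genotype median. WT lies above all 6 PS19 libraries for 6 genes but not for Rasd2, and CgA-KO/PS19 replicates 1 and 3 lie far above replicates 4 to 6 in all 7 panels. The genes were chosen on these levels, so their separation follows from the choice. The share of all genes without overlap was not computed.

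Of the 7 genes, 6 passed an FDR under 0.05 as higher in WT than in PS19 (all but Rasd2) and 0 as lower, where 3.95% and 1.95% of all genes tested passed as higher and lower. Against PS19, 3 passed in CgA-KO/PS19 as higher (Gpr6, Rgs9 and Syndig1l) and 0 as lower, where 5.50% and 4.22% of all genes passed. In CgA-KO/PS19 against WT, 0 passed in either direction by edgeR, where 3.56% of all genes passed as higher and 2.89% as lower. Of these, 2 had an unadjusted p under 0.05, both lower in CgA-KO/PS19, and DESeq2 called 1, Actn2. DESeq2 called 6 genes as higher in each comparison with PS19 and 0 as lower, and the 0 lower stood also at an unadjusted p under 0.05 in edgeR. Over all genes, DESeq2 called 1386 higher and 1010 lower in WT against PS19. It called 2338 and 1620 in CgA-KO/PS19 against PS19, where edgeR called 1268 and 974, and 1497 and 1067 in CgA-KO/PS19 against WT. The counts of the 7 follow from the choice of the genes, and nothing is read from them. The median log2 fold change over the 7 genes was 2.54, 1.67 and -0.87 in the 3 comparisons, against -0.0097, 0.026 and 0.0090 over all genes tested.

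**Figure D2:**
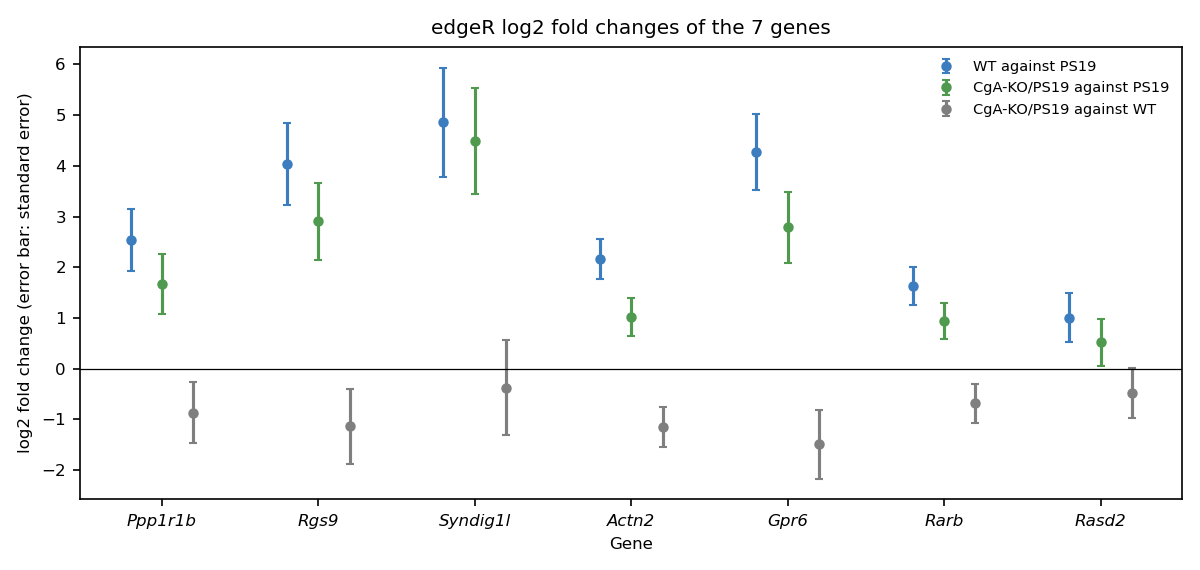
Log2 fold changes of the 7 genes in the 3 comparisons (points, edgeR) with their standard errors (bars). Values run from 1.01 to 4.86 for WT against PS19 and from 0.52 to 4.49 for CgA-KO/PS19 against PS19, and both sets share the PS19 libraries.

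The CgA-KO/PS19 group means rested on replicates 1 and 3. With both left out, a choice made after the data had been seen, the median log2 fold change against PS19 was 0.12 and 0 of the 7 genes were called by edgeR, while against WT it was -2.67 and all 7 were called lower. Over all 23133 genes tested in that fit, 465 were called higher and 253 lower against PS19, and 568 and 666 against WT. The 7 genes were chosen as high in all WT and in some CgA-KO/PS19 libraries, so nothing is read from these counts. With the near-identical libraries averaged to 1 sample each, 2 genes were called in WT against PS19 (Actn2 and Gpr6) at a median log2 fold change of 2.44, and 0 in CgA-KO/PS19 against PS19 at a median of 1.10. Leaving out CgA-KO/PS19 replicate 1, CgA-KO/PS19 replicate 3 or PS19 replicate 2 left 1 of the 3 calls against PS19, that of Syndig1l, and leaving out CgA-KO/PS19 replicate 4 raised the count to 6. Over all genes, these fits called 692, 826, 629 and 2018 higher against PS19, in the same order, where the main fit called 1268. The lower calls were 464, 539, 437 and 1804, against 974. Leaving out WT replicate 5 left 4 of the 6 calls in WT against PS19, without Ppp1r1b and Rarb. That fit called 505 higher and 127 lower over all genes, where the main fit called 911 and 450. Within replicates 4 to 6 alone, CgA-KO/PS19 overlapped PS19 for Ppp1r1b, Syndig1l, Actn2 and Rarb, lay above it for Rgs9 (5.86 to 6.77 against 4.68 to 5.50 CPM) and Gpr6 (0.903 to 1.17 against 0.595 to 0.902 CPM), and below it for Rasd2 (39.4 to 75.4 against 103 to 107 CPM). Within replicates 1 to 3 alone, CgA-KO/PS19 was above PS19 in every library for 6 genes, and for Rasd2 replicate 2, at 72.7 CPM, lay within the PS19 range. The share of all genes without overlap in these subsets was not computed. In CgA-KO/PS19 against PS19, replicates 1 to 3 alone gave 3214 higher and 3499 lower calls among 21613 genes. Replicates 4 to 6 alone gave 128 and 62 among 23562, so nothing is read from the separation of the 7.

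Expressed per library as a percent of each gene's WT median, the 7 genes were high and low in largely the same WT and CgA-KO/PS19 libraries. They were chosen on their levels in these libraries, so this is a description. Within PS19 the order of replicates differed between genes, at 1, 2, 4, 6, 3, 5 for Ppp1r1b and 3, 5, 2, 6, 1, 4 for Actn2. CgA-KO/PS19 replicate 1 was at 130.1% (Actn2) to 311% (Syndig1l) and replicate 3 at 125% to 282%. Replicate 2 was at 26.6% (Gpr6) to 60.8% (Rarb), and replicates 4 to 6 at 2.57% to 51.4%. WT was itself uneven, with replicate 3 at 204% to 302%, replicate 5 at 173% to 259% and replicate 4 at 30.4% (Syndig1l) to 81.8% (Actn2). The order of WT libraries was 3, 5, 2, 1, 4 from high to low for 5 of the 7 genes. Actn2 differed only in having replicate 5 above 3, and Rarb only in having replicate 1 above 2. In CgA-KO/PS19, replicate 2 was above replicates 4 to 6 for 6 genes but below replicate 4 for Rasd2.

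**Figure D3:**
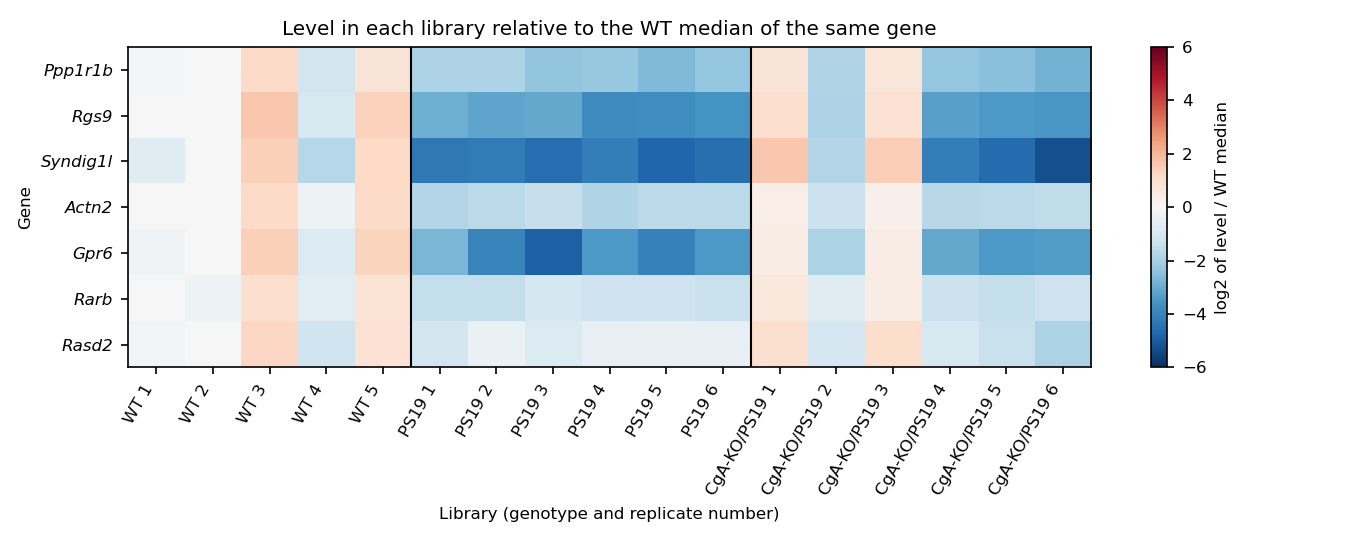
Log2 of each library's level over the WT median of the same gene (colour), for the 7 genes (rows) and 17 libraries (columns, black lines between genotypes). Red columns mark WT replicates 3 and 5 and CgA-KO/PS19 replicates 1 and 3, and the PS19 columns are blue, palest for Rasd2 and darkest for Syndig1l and Gpr6.

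The genes differed in how much remained in PS19. The PS19 median was 4.76% of the WT median for Syndig1l, 7.73% for Gpr6, 9.81% for Rgs9, 20.2% for Ppp1r1b, 32.9% for Actn2, 40.7% for Rarb and 70.9% for Rasd2. Ratios to Ppp1r1b within a library do not depend on library size, and those of Rgs9, Syndig1l, Gpr6 and Rasd2 did not overlap between WT and PS19. The CPM ratio of Rgs9 to Ppp1r1b was 0.415 to 0.621 in WT and 0.146 to 0.256 in PS19. It was 0.476, 0.400 and 0.474 in CgA-KO/PS19 replicates 1, 2 and 3, and 0.214 to 0.265 in replicates 4 to 6. For Syndig1l the ratio was 0.168 to 0.336 in WT, 0.0474 to 0.0715 in PS19, 0.269 in CgA-KO/PS19 replicate 2 and 0.0471 to 0.0720 in replicates 4 to 6. In replicates 1 and 3 it was 0.466 and 0.439, above the WT range. Rasd2 ran the other way, at 0.885 to 0.997 times Ppp1r1b in WT, 1.57 to 4.20 times in PS19, 1.04 and 1.15 times in CgA-KO/PS19 replicates 1 and 3, and 1.62 to 2.38 times in replicates 2 and 4 to 6. The Rarb ratio was 0.0257 to 0.0421 in WT and 0.0420 to 0.0812 in PS19, ranges that overlapped slightly, and was 0.0282, 0.0665 and 0.0257 in CgA-KO/PS19 replicates 1, 2 and 3 and 0.0628 to 0.0928 in replicates 4 to 6. The Actn2 ratio overlapped between WT (0.155 to 0.274) and PS19 (0.166 to 0.324), and was 0.118, 0.227 and 0.118 in replicates 1, 2 and 3 and 0.242 to 0.3895 in replicates 4 to 6 of CgA-KO/PS19. The Gpr6 ratio was 0.0587 to 0.0916 in WT and 0.0110 to 0.0333 in PS19, and CgA-KO/PS19 replicates 1, 2 and 3, at 0.0491, 0.0585 and 0.0517, lay between them, with replicates 4 to 6 at 0.0331 to 0.0444.

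Per kilobase of exon, Ppp1r1b and Rasd2 were the most abundant of the 7 in WT, at mean levels of 68.2 and 60.6 CPM per kb. Syndig1l (18.0) and Rgs9 (16.5) followed, then Actn2 (9.41) and Gpr6 (8.47), with Rarb (1.17) the lowest. Neighbours from Ppp1r1b to Rasd2 and from Syndig1l through to Gpr6 differed by less than the SD over the WT libraries, which was 49.1% to 76.0% of the mean, and the steps from Rasd2 to Syndig1l and from Gpr6 to Rarb were larger than it. In PS19 the order was Rasd2 (30.2), Ppp1r1b (11.8), Actn2 (2.10), Rgs9 (1.01), Syndig1l (0.624), Gpr6 (0.450) and Rarb (0.383), of which Gpr6 lay within its SD of both of its neighbours.

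Among the 21 pairs of these genes, Pearson's r of log2(CPM + 1) over the 17 libraries was 0.95 or higher for the 15 pairs without Rasd2 and 0.80 to 0.88 for the 6 pairs with it. The correlations pool the genotypes and share the libraries on which the genes were chosen, and they are given as a description. Of 15467 genes with a mean of at least 1 CPM, 98 (0.634%) had an r over 0.9 with the mean of the 7 standardized genes. The most alike were Serpina9 (r = 0.992), E130008D07Rik (0.989), Adora2a (0.981), Tac1 (0.979), Scube3 (0.978), Rasgrp2 (0.977), Lrrc10b (0.976) and Gpr52 (0.975). Adora2a is the adenosine receptor of the indirect pathway, and Tac1 encodes substance P, a peptide of the direct pathway. The least alike were Nefl (r = -0.961), a neurofilament gene, Efr3a (-0.961), Nr3c1 (-0.958), the glucocorticoid receptor, and Nudt4 (-0.955). Serpina9 was at 1.94 to 19.1 CPM in WT, 0.107 to 0.244 CPM in PS19, 10.005, 1.28 and 10.7 CPM in CgA-KO/PS19 replicates 1 to 3 and at most 0.147 CPM in replicates 4 to 6.

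The other striatal genes were read from 3 lists, 22 markers shared by projection neurons, 9 of the direct and 7 of the indirect pathway. In WT against PS19, 27 of the 38 were higher and 0 lower, with a median log2 fold change of 1.54. The comparison of CgA-KO/PS19 with PS19 gave 15 higher and 0 lower, with a median of 0.98, and that with WT gave 0 higher and 6 lower, with a median of -0.79. At an unadjusted p under 0.05, the counts of 0 became 0, 1 and 0, and DESeq2 gave 0, 1 and 0. The lists were written with earlier results of these data known, and cover the same libraries as the 7 genes, so that they are no independent evidence of a direction. With CgA-KO/PS19 replicates 1 and 3 left out, 2 of the 38 were called higher or lower against PS19 and 28 against WT.

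Both pathways were represented among the calls. Of the direct pathway list, 5 of 9 were higher in WT and 4 in CgA-KO/PS19 when compared with PS19, and 1, the dynorphin gene Pdyn, was lower in CgA-KO/PS19 than in WT. Drd1 was at 41.6 to 115 CPM in WT, 5.66 to 10.0 CPM in PS19, and 83.7, 23.1 and 84.8 CPM in replicates 1 to 3 and 10.1 to 13.3 CPM in replicates 4 to 6 of CgA-KO/PS19, with log2 fold changes of 3.15 and 2.28 against PS19 (FDR = 0.00233 and 0.0139, edgeR). Pdyn, at 29.3 to 54.5 CPM in WT, 27.0 to 35.8 CPM in PS19 and 16.7 to 31.0 CPM in CgA-KO/PS19, did not split the CgA-KO/PS19 libraries the way Drd1 did. Its log2 fold change in CgA-KO/PS19 against WT was -0.90 (FDR = 0.00695, edgeR). Isl1, a transcription factor of direct pathway neurons, had 0 counts in every PS19 library and in CgA-KO/PS19 replicates 4 to 6, and stood at 1.19 to 4.59 CPM in WT and at 2.03, 0.857 and 2.83 CPM in CgA-KO/PS19 replicates 1 to 3. Tac1 was higher in WT than in PS19 (log2 fold change 2.11, FDR = 0.0181) and had an FDR of 0.0921 in CgA-KO/PS19 against PS19.

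Of the indirect pathway list, 6 of 7 were higher in WT and 4 in CgA-KO/PS19 when compared with PS19, and Penk and Sp9 were lower in CgA-KO/PS19 than in WT. Drd2 was at 33.4 to 132 CPM in WT, 0.601 to 1.31 CPM in PS19, and 83.0, 10.9 and 76.9 CPM in CgA-KO/PS19 replicates 1 to 3, with 0.889 to 1.47 CPM in replicates 4 to 6. Its log2 fold changes against PS19 were 6.21 and 4.85 (FDR = 0.00246 and 0.00928, edgeR). Adora2a was at 17.6 to 146 CPM in WT, 1.28 to 2.10 CPM in PS19 and 82.9, 11.5 and 83.6 CPM in replicates 1 to 3 of CgA-KO/PS19 (FDR = 0.00620 and 0.0203). In replicates 4 to 6 it was at 0.549 to 0.969 CPM, below every PS19 library. Penk, which encodes enkephalin, was at 308 to 819 CPM in WT, 22.7 to 41.1 CPM in PS19 and 315, 101 and 300.3 CPM in replicates 1 to 3 and 29.9 to 46.5 CPM in replicates 4 to 6 of CgA-KO/PS19, with a log2 fold change of -1.89 in CgA-KO/PS19 against WT (FDR = 0.0375).

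Of the 22 shared projection neuron markers, 16 were higher in WT and 7 in CgA-KO/PS19 when compared with PS19, and 3 (Bcl11b, Dclk3 and Strip2) were lower in CgA-KO/PS19 than in WT. Pde10a, the phosphodiesterase of medium spiny neurons, was higher in WT than in PS19 (log2 fold change 3.21, FDR = 0.00978), with a log2 fold change of 1.61 and an FDR of 0.112 in CgA-KO/PS19. Bcl11b, which encodes the transcription factor CTIP2, was higher in WT (1.38, FDR = 0.00227) and had a log2 fold change of 0.56 and an FDR of 0.120 in CgA-KO/PS19. Adcy5, the main striatal adenylyl cyclase, and Ptpn5, the phosphatase STEP, had log2 fold changes of 1.49 and 0.54 in WT against PS19 and an FDR of 0.0942 and 0.0522. Against PS19, in CgA-KO/PS19, theirs were 1.10 and 0.040 (FDR = 0.151 and 0.897).

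The signaling partners of the 7 genes are mostly genes used by many neurons. Of 17 genes of the DARPP-32 cascade (phosphatase 1, protein kinase A, calcineurin and other kinase and phosphatase subunits), 1 was higher and 0 lower in WT against PS19, 1 higher and 1 lower in CgA-KO/PS19 against PS19, and 0 higher and 1 lower in CgA-KO/PS19 against WT. DESeq2 also gave 0 for both counts of 0, and at an unadjusted p under 0.05 they were 1 and 0. Nothing is read from these shares beside those of all genes tested. The genes were Ppp2r5d (0.36, FDR = 0.0481 against PS19, and -0.40, FDR = 0.0301 for CgA-KO/PS19 against WT), Prkar2b (0.93, FDR = 0.0146) and Prkar1b (-0.50, FDR = 0.0205). The paralog of Ppp1r1b, Ppp1r1a, was at 69.1 to 71.8 CPM in WT, 54.2 to 61.8 CPM in PS19 and 52.8 to 87.8 CPM in CgA-KO/PS19, and its FDR was 0.131 to 0.881 in the 3 comparisons.

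Of 10 partners and relatives of Rgs9, Rgs6 was lower in WT than in PS19 (log2 fold change -0.93, FDR = 0.0267) and the Rgs7 partner Gpr158 was lower in CgA-KO/PS19 than in WT (-0.39, FDR = 0.0457). For CgA-KO/PS19 against PS19, edgeR called 0 of the 10 in either direction, with 1 higher and 2 lower at an unadjusted p under 0.05, and DESeq2 called 1 lower. Rgs7, a relative of Rgs9, had log2 fold changes of 0.043, -0.094 and -0.14 and an FDR of 0.942, 0.801 and 0.766. Syndig1, the relative of Syndig1l, moved in the other direction, at 22.8 to 32.4 CPM in WT, 36.0 to 48.6 CPM in PS19 and 19.6 to 43.3 CPM in CgA-KO/PS19. It was lower in both comparisons with PS19 (log2 fold changes -0.65 and -0.72, FDR = 0.0284 and 0.0120), and Prrt1 and Prrt2, the other genes of this list, were called in no comparison by edgeR, nor Prrt1 by DESeq2, which gave Prrt2 no adjusted p, with 1 higher in WT against PS19 and 1 lower in CgA-KO/PS19 against WT at an unadjusted p under 0.05.

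Actn1, a non-muscle actinin, was higher in WT than in PS19 (0.63, FDR = 0.00586) and lower in CgA-KO/PS19 than in WT (-0.65, FDR = 0.00669). Its levels were 104 to 179 CPM in WT, 82.5 to 90.9 CPM in PS19 and 61.6 to 95.7 CPM in CgA-KO/PS19. It was the 1 gene called by edgeR of the 10 tested of 11 actinins, their partners and spine proteins, and in CgA-KO/PS19 against PS19 edgeR called 0, with 2 lower at an unadjusted p under 0.05 and 1 lower by DESeq2. Of 7 receptors related to Gpr6, S1pr1 was raised in CgA-KO/PS19 against PS19 (0.45, FDR = 0.0418) and against WT (0.67, FDR = 0.0101), and the cannabinoid receptor Cnr1 was lower in CgA-KO/PS19 than in WT (-0.73, FDR = 0.0163). In WT against PS19 edgeR called 0 of these 7, with 2 higher and 1 lower at an unadjusted p under 0.05 and 1 higher by DESeq2. Gpr3, a relative of Gpr6, had log2 fold changes of -0.26, -0.35 and -0.095 and an FDR of 0.752, 0.556 and 0.924.

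Retinoic acid is the ligand of Rarb, and 17 genes of its synthesis, transport, breakdown and receptors were measured. WT against PS19 gave 3 higher and 1 lower, CgA-KO/PS19 against PS19 gave 3 and 2, and CgA-KO/PS19 against WT gave 2 and 1. Rxrg, a partner receptor of Rarb that also marks striatum, was at 2.74 to 48.3 CPM in WT, 0.656 to 1.55 CPM in PS19 and 55.4, 5.42 and 55.3 CPM in replicates 1 to 3 and 1.22 to 1.61 CPM in replicates 4 to 6 of CgA-KO/PS19, with log2 fold changes of 4.30 and 4.05 against PS19 (FDR = 0.0159 and 0.0179). Cyp26b1, which breaks retinoic acid down, was also higher in both (2.14 and 1.08, FDR = 0.000902 and 0.0345). The binding protein gene Crabp1 was higher in WT than in PS19 (3.90, FDR = 0.0139) and had an FDR of 0.0565 in CgA-KO/PS19. Rara, the related receptor, was lower in CgA-KO/PS19 than in PS19 (-0.95, FDR = 0.0253).

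Of 5 small GTPase genes related to Rasd2, Diras2 was lower in both comparisons with PS19 (-0.40 and -0.38, FDR = 0.0414 and 0.0324) and Diras1 was lower in CgA-KO/PS19 (-0.34, FDR = 0.0230). Against WT, edgeR and DESeq2 called 0 in CgA-KO/PS19, and 1 was lower at an unadjusted p under 0.05. Rasd1, the closest relative, was at 3.31 to 7.87 CPM in WT, 2.28 to 4.13 CPM in PS19 and 3.03 to 5.25 CPM in CgA-KO/PS19, with an FDR of 0.0689, 0.260 and 0.417.

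The tissue is labelled prefrontal cortex, and cortical markers were present in all libraries. The summed level of 8 cortical excitatory genes was 2130 to 3852 CPM in WT, 3339.7 to 3566 CPM in PS19 and 1969.9 to 3465 CPM in CgA-KO/PS19. WT replicates 3 and 5 and CgA-KO/PS19 replicates 1 and 3, where the 7 genes were highest, had 2426, 2130, 2466 and 1969.9 CPM, and CgA-KO/PS19 replicate 2 had 2283 CPM. The 8 upper-layer genes were also lowest in these libraries, with 936, 941, 832 and 836 CPM in these 4 libraries, 1031 CPM in CgA-KO/PS19 replicate 2 and 1097 to 1459 CPM in the remaining 12. Of the cortical excitatory list 1 gene, Emx1, was lower in both comparisons with PS19, of the upper-layer list Mdga1 was higher in both and Cux2 (WT) or Lamp5 (CgA-KO/PS19) lower, and of 9 deep-layer genes measured 3 were higher in WT (Crym, Foxp2 and Nxph4). Foxp2 is also counted on the list of shared projection neuron markers, and Crym on the olfactory tubercle list. Whether these cortical levels had a part in those of the 7 genes was not tested, and in bulk RNA fewer striatal cells and less RNA per cell cannot be told apart.

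**Figure D4:**
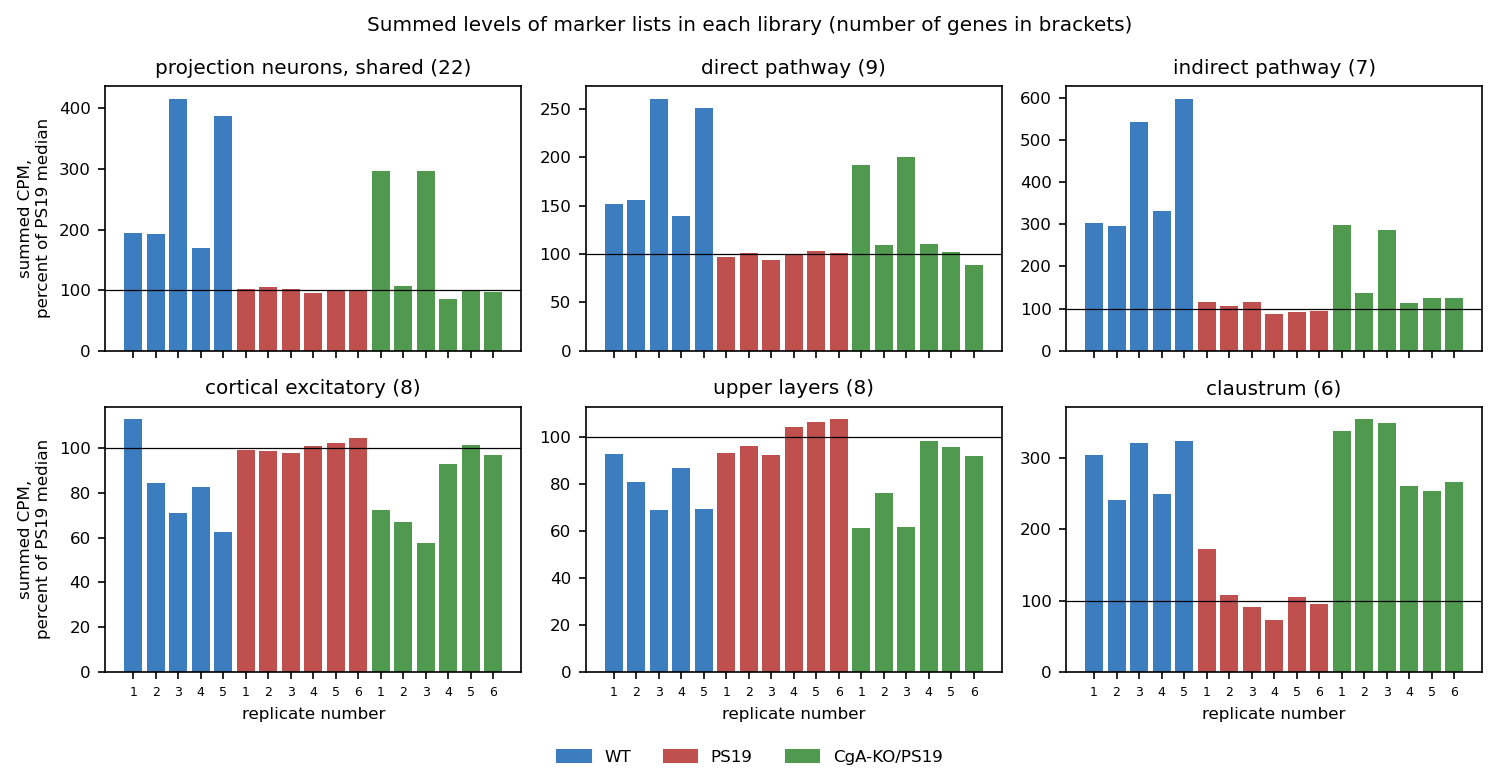
Summed CPM of 6 marker lists in each library as a percent of the PS19 median of that list (bars, 1 per library, from 0, black line at 100). The shared and direct pathway lists are highest in WT replicates 3 and 5 and CgA-KO/PS19 replicates 1 and 3, and the claustrum list lies above every PS19 library in all 6 CgA-KO/PS19 libraries.

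Marker lists of other regions and cell types did not all follow the levels of the 7 genes. Claustrum and lateral cortex genes were summed at 302 to 406 CPM in WT, 90.9 to 216 CPM in PS19 and 317 to 443 CPM in CgA-KO/PS19, and 5 of 6 were higher in each comparison with PS19. Nr4a2, a transcription factor that marks claustrum and deep lateral cortex, was higher in both comparisons with PS19 (1.86 and 2.90, FDR = 0.00574 and 0.000291). Where the 7 genes were low, in CgA-KO/PS19 replicates 4 to 6, the claustrum sum was 317 to 334 CPM. Choroid plexus genes reached 1138 CPM in WT replicate 5, against 5.29 to 23.2 CPM in every other library, and 5 of 8 were higher in WT and 1 in CgA-KO/PS19 when compared with PS19, and 4 were lower in CgA-KO/PS19 than in WT. Striatal interneuron genes had 5 higher and 1 lower of 11 tested in WT against PS19, 1 and 1 in CgA-KO/PS19 against PS19, and 0 and 2 in CgA-KO/PS19 against WT, the 0 being 0 also at an unadjusted p under 0.05 and in DESeq2. For olfactory tubercle genes 4 of 6 tested were higher in WT and 2 in CgA-KO/PS19 than in PS19, and for septum, hypothalamus and thalamus genes 3 of 10 and 2 of 10. Of the 4 olfactory tubercle genes, Tac1 is also counted on the direct pathway list and Crym on the deep-layer list. Of 7 astrocyte genes 1 was lower in WT and 2 were higher in CgA-KO/PS19 when compared with PS19, and of 7 oligodendrocyte genes 1, Mobp, was higher in CgA-KO/PS19. The summed astrocyte level was 5408, 3918, 6172, 3259, 1108.5 and 1169 CPM in CgA-KO/PS19 replicates 1 to 6. It ran from 994 to 4892 CPM in PS19 and from 1054 to 3456 CPM in WT, where replicates 3 and 5 had 2809 and 1864 CPM. The summed oligodendrocyte level was 213%, 184% and 215% of the PS19 median in CgA-KO/PS19 replicates 1 to 3, 112% to 119% in replicates 4 to 6 and 81.1% to 133% in WT. Against WT, CgA-KO/PS19 had S100b, Mbp and Mobp higher and Nnat, Dlk1 and Trh lower on the glial, claustrum and septum lists. Over the excitatory, upper-layer, deep-layer and olfactory tubercle lists, edgeR and DESeq2 called 0 genes in that comparison, with 1 higher and 2 lower upper-layer, 1 lower deep-layer and 1 lower olfactory tubercle gene at an unadjusted p under 0.05. Of 7 microglia and 6 endothelium genes edgeR and DESeq2 called 0 in each comparison, and at an unadjusted p under 0.05 the counts were 0, 2 and 1 for microglia and 1, 0 and 2 for endothelium. Whether any of these cell types had a part in the levels of the 7 genes was not tested.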

How the data were processed

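The authors trimmed reads with Trimmomatic 0.39, aligned them to mm10 with STAR 2.7.10b, quantified genes with StringTie 1.3.6 and converted coverage to whole-number counts with prepDE. They deposited these raw counts for 17 cortex libraries without normalization. About 3 deposited counts stand for 1 fragment, since low counts peaked at 3 and 6 in all 17 libraries, so counting error is larger than the counts imply. The annotation release and the use of strand are not given in the sources used here, so overlapping genes and paralogs are uncertain.

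Samples were grouped by labelled genotype. Counts were fitted with edgeR 4.0.16 in R 4.3.3 (TMM, filterByExpr, quasi-likelihood test, 1 mean per genotype over all 17 libraries), with Benjamini-Hochberg adjustment over 23062 genes and calls at an FDR under 0.05. Nothing in the labels says how mice were assigned, so p-values measure the spread between these libraries. The common coefficient of variation between libraries was 0.316. The replicate numbers did not pair the libraries, since 2 of 16 same-numbered pairs had a correlation of deviations over 0.1.

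The 7 genes and all gene lists were chosen with earlier results of these data known. Named genes are the 7, 12 striatal genes, partners past the FDR and a paralog of each of the 7, and the 8 most and 4 least alike genes. The paralogs were named without an alignment, and need not be the closest. Of the listed genes, 52029 matched GENCODE M21 (GRCm38), which gave positions and exon lengths. The fit was tested on simulated data. Alternatives were DESeq2 1.42.0, other scaling and filters, the replicate number as a block, averaging of near-identical libraries, Ddx3y as a covariate and leaving out each library. Leaving out CgA-KO/PS19 replicates 1 and 3 together, and fitting replicates 1 to 3 or 4 to 6 alone, were added after the data had been seen. Tables were made with pandas 2.3.3 and plots with matplotlib 3.10.9, in Python 3.11.15. Called genes of other cell type lists are named after their values were seen. Values of some genes on the lists are not reported here.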

Additional observations from a re-analysis of the deposited data

How the results depend on the processing

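Of the values recomputed under the alternatives, 228 of 261 summary values and 581 of 609 single-gene values stayed within the limit set for them. That limit is 1.5-fold for a count of calls and the spread between replicates for a fold change. The spread is wide where CgA-KO/PS19 is compared, since its libraries split, and most alternatives leave out only 1 library. A fall of the median against PS19 from 1.67 to 0.96 under the replicate block stayed within the limit. These shares are therefore no measure of stability. A change of sign was counted as a reversal only for the medians and for genes called in the main fit. Syndig1l in CgA-KO/PS19 against WT, not called there, ran from -1.07 to 0.018 when 1 library at a time was left out. With the replicate number as a block, which does not pair these libraries, 3 of the 7 genes were called in WT against PS19 in place of 6, and 0 in place of 3 in CgA-KO/PS19 against PS19, where 4 of the other striatal genes were called in place of 15. The median log2 fold change of the 7 was 2.18 under the block in WT against PS19 (2.54 without it), and 0.96 in CgA-KO/PS19 against PS19 (1.67 without it), with Syndig1l at 2.79 and Rasd2 at 0.11, and -1.22 in CgA-KO/PS19 against WT (-0.87 without it). With near-identical libraries averaged, the counts of the 7 were 2 and 0 in these comparisons, and those of the other striatal genes 16 in place of 27, and 0. The medians were then 2.44 and 1.10, and -1.35 in CgA-KO/PS19 against WT. DESeq2 called 6 of the 7 in CgA-KO/PS19 against PS19 and 1 in CgA-KO/PS19 against WT. Over all genes it called 2338 higher and 1620 lower, and 1497 and 1067, in these comparisons. With only the genotypes compared in the fit, 2 other striatal genes were called in CgA-KO/PS19 against WT in place of 6. That fit called 151 higher and 115 lower over all genes, where the main fit called 822 and 667.

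With CgA-KO/PS19 replicates 1 and 3 both left out, CgA-KO/PS19 against PS19 had 0 of the 7, 2 other striatal genes and a median log2 fold change of 0.12, and CgA-KO/PS19 against WT had 7, 28 and -2.67. Within replicates 4 to 6 alone these were 0, 1 and -0.070, with Syndig1l at -0.15, and 5, 22 and -2.68. Within replicates 1 to 3 alone, 0 of the 7 and 9 other striatal genes were called in WT against PS19, at a median of 2.47, and 6 of the 7 in CgA-KO/PS19 against PS19, at 2.30. In WT against PS19 that fit called 98 of all 21613 genes tested as higher and 30 as lower. In CgA-KO/PS19 against PS19 it called 3214 and 3499. Within replicates 4 to 6 alone, WT against PS19 gave 6 of the 7 and 23 others, at 2.53. Over all 23562 genes tested, replicates 4 to 6 alone gave 694 higher and 674 lower in WT against PS19. For CgA-KO/PS19 they gave 128 and 62 against PS19, and 339 and 379 against WT. With CgA-KO/PS19 replicates 1 and 3 left out, 465 and 253 of 23133 genes were called against PS19, and 568 and 666 against WT. These fits hold fewer libraries. The genes were chosen on these libraries, and nothing is read from the counts.

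Leaving out 1 library at a time gave 4 to 6 of the 7 and 20 to 29 other striatal genes in WT against PS19, with a median log2 fold change of 2.23 to 2.75. In CgA-KO/PS19 against PS19 the ranges were 1 to 6, 11 to 23 (23 without CgA-KO/PS19 replicate 4) and 1.17 to 1.88. In CgA-KO/PS19 against WT they were 0 to 1 (1, Actn2, without CgA-KO/PS19 replicate 1 or 3), 4 to 10 (10 without CgA-KO/PS19 replicate 1) and -1.37 to -0.56. The calls over all genes moved too in these fits. They were 505 to 1052 higher and 127 to 606 lower in WT against PS19. In CgA-KO/PS19 against PS19 they were 616 to 2018 and 403 to 1804, and against WT 341 to 1053 and 286 to 1067. Over all genes, 911 higher and 450 lower calls in WT against PS19 became 513 and 147 with the block and 351 and 74 with averaging. For CgA-KO/PS19 against PS19, 1268 and 974 became 388 and 266, and 114 and 54, and for CgA-KO/PS19 against WT 822 and 667 became 325 and 289, and 307 and 272. Without TMM, on library totals alone, the median of all genes in CgA-KO/PS19 against WT moved from 0.0090 to -0.094, and the calls were 577 higher and 1336 lower, with 971 and 1330 against PS19 and 1024 and 299 for WT against PS19. Low counts limit Rarb, Gpr6 and Syndig1l most, with about 9, 11 and 12 fragments in the libraries where their counts were lowest. For Rarb that was WT replicate 4, the shallowest library, and for Gpr6 and Syndig1l it was CgA-KO/PS19 replicate 6.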
